A study of Mus musculus with 9 samples.

Results

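The Akr1 genes encode aldo-keto reductases, and 9 of them were followed here among the 47937 genes counted in mouse embryonic fibroblasts (MEFs): Akr1cl, Akr1c12, Akr1c13, Akr1c14, Akr1c18, Akr1b3, Akr1b8, Akr1a1 and Akr1e1. The rows were found by Ensembl identifier. The set was chosen by expression in these same libraries, earlier results of which, with family members higher in G9Gl, were known, so the members' levels and fold changes are given as a description. No p-value is printed for any member, and where calls of members are counted, they rest on the values that chose the set and support nothing. The set is not the whole family: 11 further aldo-keto reductase genes are treated below as a separate list. A filter on low counts left 15540 genes for testing, and 8 of the 9 members passed it. Akr1c18 did not pass.

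RNA-seq of total RNA was available for 3 cultures of each of 3 genotypes, and the comparisons asked what the loss of either pair of H3K9 lysine methyltransferases (KMT, enzymes that methylate lysine 9 of histone H3) did to these transcripts. WT cells were a MEF clone with a conditional Eset1 allele and a tamoxifen-inducible Cre, in which all H3K9 KMT genes were meant to be intact. S1S2 cells were derived from it by CRISPR/Cas9 frameshifts in Suv39h1 and Suv39h2 (Suv39h1/Suv39h2 KO), and G9Gl cells by frameshifts in G9a and Glp (G9a/Glp KO), which are the genes Ehmt2 and Ehmt1. The conditional Eset1 background is thus shared by all 3 genotypes, and nothing in the labels says that any culture was treated with tamoxifen. Per the study's methods each mutant line came from a clone selected for loss of the target proteins on western blots, so clone and genotype cannot be told apart in any comparison.

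Library totals lay between 21319778 and 32157623 counts, and no library was left out. Suv39h1 was lower in S1S2 (41.9 ± 3.14 CPM, library-scaled counts per 1000000, against 108 ± 4.59 in WT, mean ± SD, n = 3), Suv39h2 was higher (55.2 ± 2.34 against 33.9 ± 0.671), and Ehmt1 and Ehmt2 were both lower in G9Gl (50.2 ± 1.62 against 104 ± 1.78, and 54.3 ± 2.82 against 125 ± 9.63). Since the alleles are frameshifts, a transcript level does not show whether protein was made. The labelled cell type was checked with 8 fibroblast markers, all of which were detected. Their summed level ranged from 8257 to 9568 CPM in WT, from 5634 to 5688 CPM in S1S2 and from 6253 to 7072 CPM in G9Gl, with 6 of 8 called lower in S1S2 (a call being an adjusted p of at most 0.01 in edgeR and at least a 2-fold change), and 1 called higher and 3 lower in G9Gl. The matching shares over all tested genes were 4.34% for lower in S1S2, and 6.77% and 3.40% for G9Gl. In these bulk libraries, fewer cells with a transcript and less of it per cell cannot be told apart.

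Aldo-keto reductases use NADPH or NADH to reduce the carbonyl group of aldehydes and ketones, sugars, steroids, prostaglandins and lipid peroxidation products among them. The general-purpose enzymes Akr1a1 (aldehyde reductase) and Akr1b3 (aldose reductase, the entry to the polyol pathway) are made in many tissues, whereas the Akr1c enzymes act largely on steroids and related substrates and are best known from liver, gut and steroid-forming tissues. In the mouse the Akr1c genes lie side by side in a cluster that arose by gene duplication.

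Members of the cluster can be told apart only where their sequences differ. Akr1c12 and Akr1c13 have coding sequences that are 96.2% identical over 972 bases, and 17.3% of the distinct 75-base stretches of the Akr1c12 transcripts (the length of a sequenced read) also occur in Akr1c13, or 14.3% as a share of Akr1c13. Reads from these stretches could have been counted for either gene. Akr1cl shared no such stretch with another annotated gene, and its coding sequence was 73.9% to 77.8% identical to those of the Akr1c members and 62.4% to 65.2% identical to those of Akr1b3, Akr1b8, Akr1a1 and Akr1e1. Akr1c14 shared 5.06% of its stretches with the pseudogene Gm18857, which overlaps it on the same strand, and Akr1b3 shared 8.32% with processed copies of which Gm6644, with 7.46%, was the closest and had at most 12 counts in a library.

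The windows around the transcription starts of the 3 genes on which the results turn are shown first, from 250 bases before the RefSeq start to 50 after it, 5′ to 3′ on the strand of the gene (GRCm38.p6). RefSeq windows were matched for 8 of the 9 members, and Akr1b3 had none. The Akr1cl window is chr1:65032710-65033009, minus strand. Its capitals mark an antioxidant response element core (TGACNNNGC, found on the opposite strand with its first base 166 bases before the start) and CCAAT boxes, which begin 246, 113 and 71 bases before the start.

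Akr1cl: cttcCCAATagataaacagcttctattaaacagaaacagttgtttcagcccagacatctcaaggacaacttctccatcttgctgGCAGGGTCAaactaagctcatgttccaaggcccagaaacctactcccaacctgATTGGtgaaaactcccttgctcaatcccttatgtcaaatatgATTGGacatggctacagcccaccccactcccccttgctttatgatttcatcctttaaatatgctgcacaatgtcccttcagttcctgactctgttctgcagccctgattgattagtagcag

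The Akr1c12 window is chr13:4279350-4279649 on the minus strand and the Akr1c13 window is chr13:4190937-4191236 on the plus strand. They are set side by side because both genes were raised in G9Gl. Capitals mark the bases at which they differ or that lie outside the alignment, and 284 of 296 aligned positions (95.9%) were identical.

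Akr1c12: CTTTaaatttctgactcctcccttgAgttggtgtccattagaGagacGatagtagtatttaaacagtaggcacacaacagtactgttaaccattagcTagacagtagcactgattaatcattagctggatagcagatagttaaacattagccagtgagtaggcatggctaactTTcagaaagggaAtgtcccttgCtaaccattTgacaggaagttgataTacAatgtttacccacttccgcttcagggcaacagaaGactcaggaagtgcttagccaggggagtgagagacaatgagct

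Akr1c13: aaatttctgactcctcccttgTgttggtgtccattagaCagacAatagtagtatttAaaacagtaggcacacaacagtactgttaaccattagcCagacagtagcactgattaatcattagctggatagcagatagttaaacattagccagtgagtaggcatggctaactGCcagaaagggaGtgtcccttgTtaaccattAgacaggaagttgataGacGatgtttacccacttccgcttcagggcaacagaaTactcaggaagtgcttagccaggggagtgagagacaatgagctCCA

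The window of Akr1a1, chr4:116651625-116651924 on the minus strand, is given for contrast, as that of the most abundant member, with each CG in capitals.

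Akr1a1: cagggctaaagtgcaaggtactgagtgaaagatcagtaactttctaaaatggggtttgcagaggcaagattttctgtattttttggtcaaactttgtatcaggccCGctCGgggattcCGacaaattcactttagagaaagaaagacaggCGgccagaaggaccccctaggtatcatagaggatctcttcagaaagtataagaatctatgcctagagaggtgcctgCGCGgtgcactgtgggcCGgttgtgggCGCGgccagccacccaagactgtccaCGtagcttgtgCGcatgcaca

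The Akr1cl window held 0 CG dinucleotides and those of Akr1c12, Akr1c13 and Akr1c14 held 2 each, against 5 for Akr1c18, 6 for Akr1e1, 10 for Akr1b8 and 11 for Akr1a1. Over 32851 promoter windows of the same length the median was 7 and the quartiles were 3 and 20. On either strand, TGACNNNGC occurred in 12.4% of all windows and among the members in that of Akr1cl alone. CCAAT occurred in 37.4% of all windows and in those of Akr1cl, Akr1c14 and Akr1e1, TATAAA in 13.6% and in that of Akr1b8 alone, and CACGTG in 7.15% and in no member's window. TGACNNNGC and CCAAT matches did not overlap in the Akr1cl window. Such matches describe letters and do not show binding, and a window without a match says nothing about the factor.

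Akr1cl (ENSMUSG00000025955, chr1:65012689-65032759, minus strand, 10 exons in its longest coding transcript) was at the detection limit in WT and S1S2 MEF cells and clearly present in G9Gl MEF cells. Counts were 2, 1 and 0 in WT, 0, 0 and 1 in S1S2, and 943, 924 and 1088 in G9Gl. The lowest G9Gl library thus stood far above every other library, and WT and S1S2 overlapped.

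In G9Gl the level was 33.9 ± 1.37 CPM (mean ± SD, n = 3), against 0.0315 ± 0.0308 in WT and 0.0157 ± 0.0272 in S1S2. The ratio of the summed counts, scaled by library size, which does not depend on a prior count, was 1062 for G9Gl over WT, with a 95% counting interval of 363 to 5153, and 2394 for G9Gl over S1S2, with an interval of 429 to 94582. The intervals are wide because 3 counts in WT and 1 in S1S2 are the denominators. Intervals and detection limits cover counting error only, since amplified reads that carry no molecular identifier may stem from one molecule. The opposite-strand pseudogene Gm8550, which lies within Akr1cl, had 0 counts in all 9 libraries.

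Akr1c13 (ENSMUSG00000021213, chr13:4191150-4205596, plus strand, 9 exons), a dehydrogenase gene of the cluster, was low in WT and well above it in G9Gl. Counts were 2, 4 and 6 in WT, 3, 14 and 9 in S1S2, and 171, 202 and 212 in G9Gl. WT and S1S2 overlapped and G9Gl overlapped neither. Its mean was 0.129 ± 0.066 CPM in WT, 0.357 ± 0.195 CPM in S1S2 and 6.73 ± 0.649 CPM in G9Gl. The fitted log2 fold change of G9Gl against WT was 5.67 (SE 0.3) and the ratio of summed counts was 52.6 (95% counting interval 29.9 to 102). Between S1S2 and WT the log2 fold change was 1.49 (SE 0.541), and 1 S1S2 library, with 3 counts, lay inside the WT range.

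Akr1c12 (ENSMUSG00000021211, chr13:4268176-4279433, minus strand, 9 exons), the near-identical partner of Akr1c13, followed at a lower level. Counts were 0, 2 and 1 in WT, 1, 0 and 0 in S1S2, and 39, 36 and 58 in G9Gl. In G9Gl it reached 1.52 ± 0.327 CPM, and the ratio of summed counts over WT was 47.8 (95% counting interval 16 to 235). Because of the shared stretches, the division of counts between Akr1c12 and Akr1c13 is uncertain. Their sum is less so, as neither shared a 75-base stretch with any other annotated gene.

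Akr1c14 (ENSMUSG00000033715, chr13:4049011-4090688, plus strand), a 3-alpha-hydroxysteroid dehydrogenase, was low everywhere. WT had 8, 14 and 16 counts, S1S2 had 7, 7 and 0, and G9Gl had 22, 17 and 27. In CPM, G9Gl (0.755 ± 0.136) lay above all WT (0.408 ± 0.143) and S1S2 libraries (0.192 ± 0.17), whereas WT and S1S2 overlapped. Its log2 fold change was 0.89 (SE 0.309) for G9Gl against WT and 1.91 (SE 0.791) for G9Gl against S1S2. The latter was past the limits for a call, an adjusted p of at most 0.01 in edgeR's quasi-likelihood test and at least a 2-fold change, with all libraries. It lost the call in 4 of the 9 fits that left out a library, those without G9Gl replicate 1, G9Gl replicate 3, S1S2 replicate 2 or S1S2 replicate 3, and fell to 1.39 without the last, the library with 0 counts.

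Akr1c18 (ENSMUSG00000021214, chr13:4132615-4150654, minus strand), the 20-alpha-hydroxysteroid dehydrogenase that inactivates progesterone, had 0 counts in each of the 9 libraries. A count of 0 allows up to 3 counts, or 0.0923 to 0.141 CPM depending on the library, so a lower level would not have been seen. It lies between Akr1c14 and Akr1c13.

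**Figure D1:**
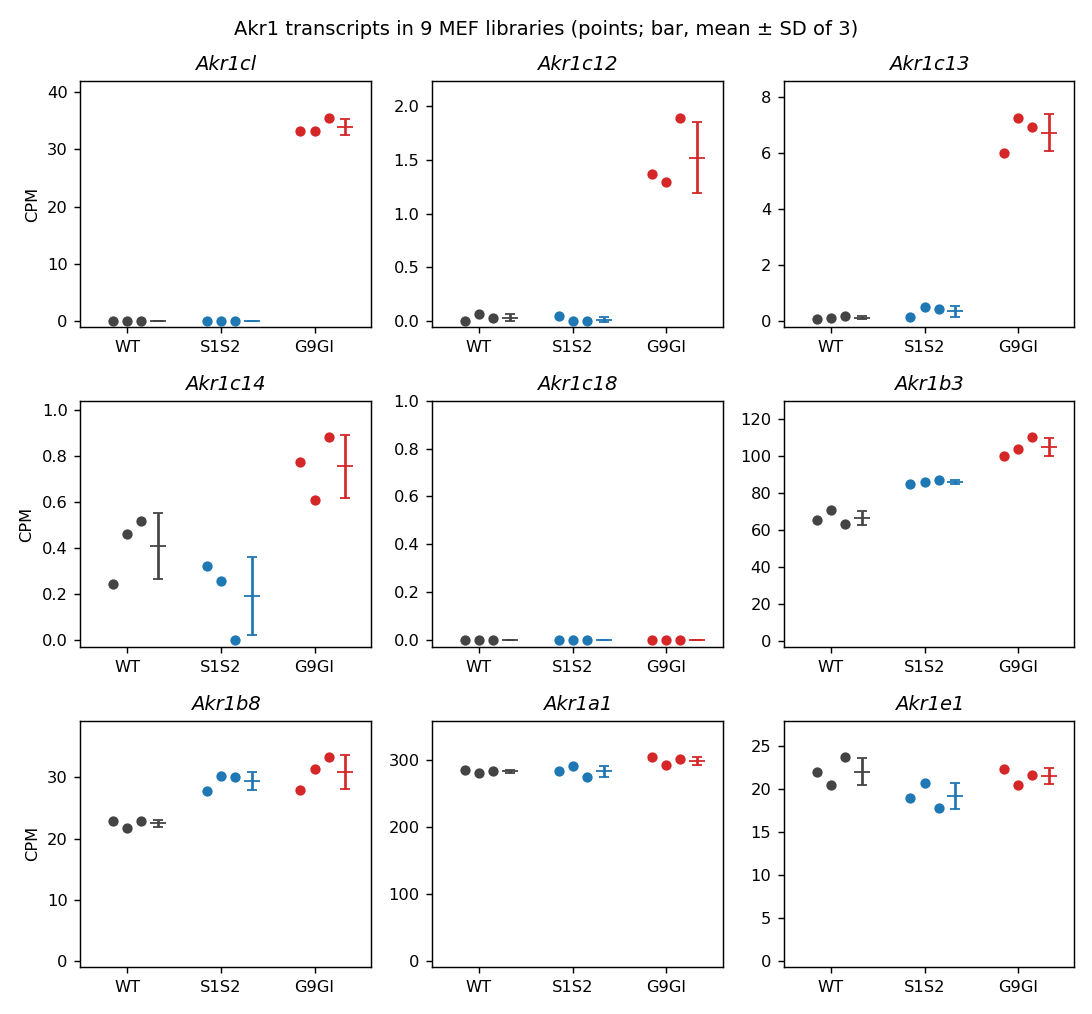
CPM (y axis, linear, a scale of its own in each panel) of the 9 Akr1 genes in the 3 libraries of each genotype (points), with mean and SD beside them. Akr1cl reached 33.1 to 35.5 CPM in G9Gl and at most 0.0615 CPM elsewhere, while Akr1a1 stayed between 274 and 304 CPM in all 9 libraries.

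The cluster did not move as a block. GENCODE places 9 Akr1c and Akr1e genes within 560 kb of chromosome 13, and 5 of them had at most 3 counts in every library. Akr1c19, between Akr1c13 and Akr1c12, had 0 counts in all 9 libraries, as did Akr1c6 beyond Akr1c12. Akr1c20 had at most 2 counts and Akr1c21 at most 3 in any library. Gaps of 40.5 kb and 23.1 kb separate Akr1c13 from the undetected Akr1c18 and Akr1c19, and 15.3 kb separates Akr1c19 from Akr1c12.

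Akr1e1 (ENSMUSG00000045410, chr13:4590750-4609174, minus strand), which reduces 1,5-anhydrofructose, closes the cluster and was the only one of its genes above 1 CPM in WT. WT libraries were at 22, 20.5 and 23.7 CPM, S1S2 libraries at 19, 20.7 and 17.8 CPM and G9Gl libraries at 22.3, 20.5 and 21.6 CPM. All 3 genotypes overlapped, and the log2 fold changes were -0.20 (SE 0.0868) in S1S2 and -0.04 (SE 0.0689) in G9Gl.

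The ubiquitous enzymes outside the cluster were abundant throughout. Akr1a1 (ENSMUSG00000028692, chr4:116636510-116651680, minus strand) was at 285, 281 and 284 CPM in WT, at 284, 291 and 274 CPM in S1S2 and at 304, 292 and 301 CPM in G9Gl. S1S2 overlapped WT, and G9Gl lay just above both with log2 fold changes of 0.08 against either.

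Akr1b3 (ENSMUSG00000001642, chr6:34302434-34317478, minus strand) was higher in S1S2 and higher again in G9Gl, by less than 2-fold. It was at 65.2, 71 and 63.3 CPM in WT, at 84.8, 85.8 and 86.8 CPM in S1S2 and at 100, 104 and 110 CPM in G9Gl, so that no genotypes overlapped. The log2 fold change against WT was 0.37 (SE 0.0505) in S1S2 and 0.66 (SE 0.0624) in G9Gl. The antisense gene Gm14546, which spans Akr1b3, had 0 counts in all libraries.

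Akr1b8 (ENSMUSG00000029762, chr6:34354119-34368463, plus strand), an aldehyde reductase known to be inducible by fibroblast growth factor, was above WT in both mutants. Its libraries were at 22.9, 21.8 and 22.8 CPM in WT, at 27.7, 30.3 and 30.1 CPM in S1S2 and at 27.9, 31.4 and 33.3 CPM in G9Gl. The mutants overlapped each other and not WT, with log2 fold changes of 0.38 (SE 0.0465) in S1S2 and 0.46 (SE 0.0783) in G9Gl.

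**Figure D2:**
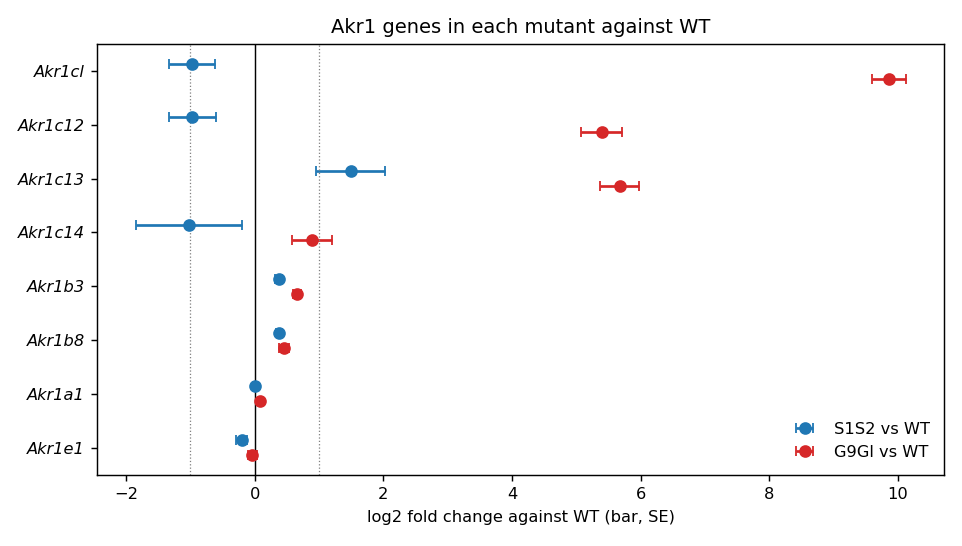
Log2 fold change against WT (x axis) of the 8 tested Akr1 genes in S1S2 (blue) and G9Gl (red), with SE from the spread of 3 libraries per genotype; dotted lines mark a 2-fold change. In G9Gl, Akr1cl (9.86), Akr1c13 (5.67) and Akr1c12 (5.39) stand apart from the rest. The fitted values and the bars of genes with few counts in WT and S1S2 depend on the prior count, and the bars can understate the counting error.

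By the limits for a call, 0 of 8 tested members were called in S1S2 against WT, where 9.0% of all tested genes were (4.66% higher and 4.34% lower). DESeq2 called 0 as well, and 4 members had an unadjusted p under 0.05. In G9Gl against WT, 3 members were higher (Akr1cl, Akr1c12 and Akr1c13) and 0 lower, beside 10.2% of all genes (6.77% higher and 3.40% lower). In G9Gl against S1S2, 4 members were higher, Akr1c14 being the fourth, beside 13.1% of all genes (7.97% higher and 5.08% lower). The median log2 fold change of the 8 members was -0.10, 0.77 and 1.10 in these comparisons, and that of all tested genes was -0.0032, -0.0067 and 0.0002. Both mutants were compared with the same WT libraries, and since the members were chosen with these differences known, nothing is read from the counts.

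Levels of different genes were set in order on the scale of CPM per kb of the longest coding transcript. In WT the order was Akr1a1 (200 ± 1.69), Akr1b3 (47.9 ± 2.89), Akr1b8 (16.6 ± 0.442) and Akr1e1 (6.37 ± 0.456), none of which overlapped its neighbour in the order. Akr1c14, Akr1c13, Akr1c12 and Akr1cl followed at 0.128 to 0.0179 CPM per kb, each overlapping the next, with Akr1c18 at 0. In S1S2 the first 4 genes kept this order, with Akr1a1 at 199 ± 6.07, Akr1b3 at 61.8 ± 0.722, Akr1b8 at 21.6 ± 1.05 and Akr1e1 at 5.54 ± 0.424 CPM per kb.

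In G9Gl, Akr1cl took the fourth place at 19.3 ± 0.778 CPM per kb, just below Akr1b8 (22.7 ± 2.02) and above Akr1e1 (6.2 ± 0.258). Akr1c13 (5.33 ± 0.514), Akr1c12 (1.2 ± 0.259) and Akr1c14 (0.237 ± 0.0428) came next, and no detected neighbours in the order overlapped. The sum over the 9 genes was 271 ± 0.986 CPM per kb in WT, 289 ± 6.38 in S1S2 and 341 ± 7.01 in G9Gl. Akr1cl made up 0.0066% ± 0.00644 of that sum in WT and 5.65% ± 0.115 in G9Gl, and the share of Akr1a1 was 73.7% ± 0.711 in WT and 61.7% ± 1.39 in G9Gl.

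The 11 aldo-keto reductase genes outside the set include the potassium channel beta subunits Kcnab1, Kcnab2 and Kcnab3, which carry the same fold, and 5 of them were tested. Kcnab2 was lower in G9Gl: its libraries held 3 counts each, against 58, 74 and 101 in WT and 64, 73 and 58 in S1S2. The ratio of summed counts of G9Gl over WT was 0.0417 (95% counting interval 0.0188 to 0.0804), with adjusted p = 9.97e-09 in the edgeR test. The log2 fold change against S1S2 was -4.68 (SE 0.0491, adjusted p = 5.11e-09 in edgeR). That SE rests on equal counts of 3 in the G9Gl libraries and on a prior count, and it understates the counting error. In S1S2 Kcnab2 was near WT (log2 fold change 0.15, SE 0.247, adjusted p = 0.56).

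Kcnab1 fell in both mutants. It had 19, 37 and 31 counts in WT, 2, 4 and 3 in S1S2 and 15, 10 and 5 in G9Gl, with log2 fold changes of -2.82 (SE 0.321, adjusted p = 0.000151) and -1.42 (SE 0.491, adjusted p = 0.00591) in edgeR. The call in G9Gl was lost in DESeq2, with only the compared libraries fitted, and without G9Gl replicate 2 or 3 or WT replicate 2 or 3. The difference between the mutants did not pass (adjusted p = 0.0577).

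The other 3 tested genes were not called in any comparison. Akr1b10, the enzyme gene next to Akr1b8, was at 10.1 ± 1.42 CPM in WT, 12.7 ± 1.98 in S1S2 and 11 ± 0.55 in G9Gl. Akr7a5, which reduces succinic semialdehyde, was at 14.2 ± 0.997, 14.8 ± 0.341 and 13.4 ± 0.924 CPM, and Kcnab3 at 1.4 ± 0.359, 2.55 ± 0.163 and 1.56 ± 0.343 CPM. Not tested were Akr1b7, Akr1c6, Akr1c19, Akr1c20, Akr1c21 and Akr1d1. Akr1b7, downstream of Akr1b10, had 15, 4 and 6 counts in G9Gl and at most 3 in any other library.

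Genes other than the members whose start lay within 500 kb of a member's gene body were taken as its surroundings, and 43 of them were tested in all. Distances are between gene starts. Of these, 1 was higher and 2 were lower in S1S2, 1 was higher and 1 lower in G9Gl against WT, and 3 were higher and 1 lower in G9Gl against S1S2. These 3, 2 and 4 calls among 43 genes stand beside 9.0%, 10.2% and 13.1% of all tested genes called in the same comparisons, so no excess of calls is read from them. Around Akr1cl 10 of 30 annotated genes were tested. Its nearest tested neighbours were the pseudogene Rpl10a-ps1, 38.2 kb away, with a log2 fold change of 0.06 in either mutant, and Idh1, the cytosolic isocitrate dehydrogenase, 154 kb away on the other side. Idh1 was at 109 ± 3.85 CPM in WT and lower in both mutants, with log2 fold changes of -0.64 (SE 0.0387, adjusted p = 9.62e-09) in S1S2 and -0.70 (SE 0.0507, adjusted p = 2.10e-09) in G9Gl by edgeR, short of 2-fold.

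The only called gene around Akr1cl was Gm29152, 383 kb away, with 9, 11 and 9 counts in WT, 24, 17 and 35 in G9Gl and 0 in every S1S2 library. Its ratio of summed counts of G9Gl over WT was 2.83 (95% counting interval 1.82 to 4.5, adjusted p = 0.0029 in edgeR), and in S1S2 it was at least 7.26-fold lower than in WT, taking 3 counts over the group as the limit (adjusted p = 0.000316). The call in G9Gl was lost in DESeq2 and without G9Gl replicate 3, WT replicate 1 or WT replicate 3.

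Around the Akr1c genes few others were tested, and none was called. Net1, a guanine nucleotide exchange factor gene and the nearest tested gene to all 4, had log2 fold changes of 0.52 (SE 0.0392, adjusted p = 2.27e-07) in S1S2 and 0.39 (SE 0.0468, adjusted p = 5.65e-06) in G9Gl by edgeR. Around Akr1e1 no gene outside the set was tested. Beside Akr1a1, Nasp (log2 fold changes -0.07 and -0.17 in S1S2 and G9Gl) and the peroxiredoxin gene Prdx1 (-0.05 and -0.27) were not called. Farther off, Zswim5 was higher in S1S2 (1.76, SE 0.389, adjusted p = 0.00199), a call that was lost without S1S2 replicate 2 or 3 or WT replicate 1. Slc35b4, the nearest tested gene on the lower-coordinate side of Akr1b3, had log2 fold changes of 0.18 and 0.49 in S1S2 and G9Gl and was not called against WT. Around Akr1b3 and Akr1b8, 2 genes were called between the mutants, both higher in G9Gl than in S1S2, and neither was called against WT. Cald1, the gene of the actin-binding protein caldesmon, was at 440 ± 28.2 CPM in WT, 276 ± 3.75 in S1S2 and 588 ± 54.2 in G9Gl, and between the mutants it changed by 1.09 ± 0.0758 (SE) on the log2 scale, with an adjusted p of 4.94e-11 in edgeR. Lrguk was low, at 0.513 ± 0.0454, 0.338 ± 0.0228 and 0.932 ± 0.198 CPM, where the log2 fold change between the mutants was 1.44 ± 0.164 (SE), with an adjusted p of 0.00103 in edgeR.

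**Figure D3:**
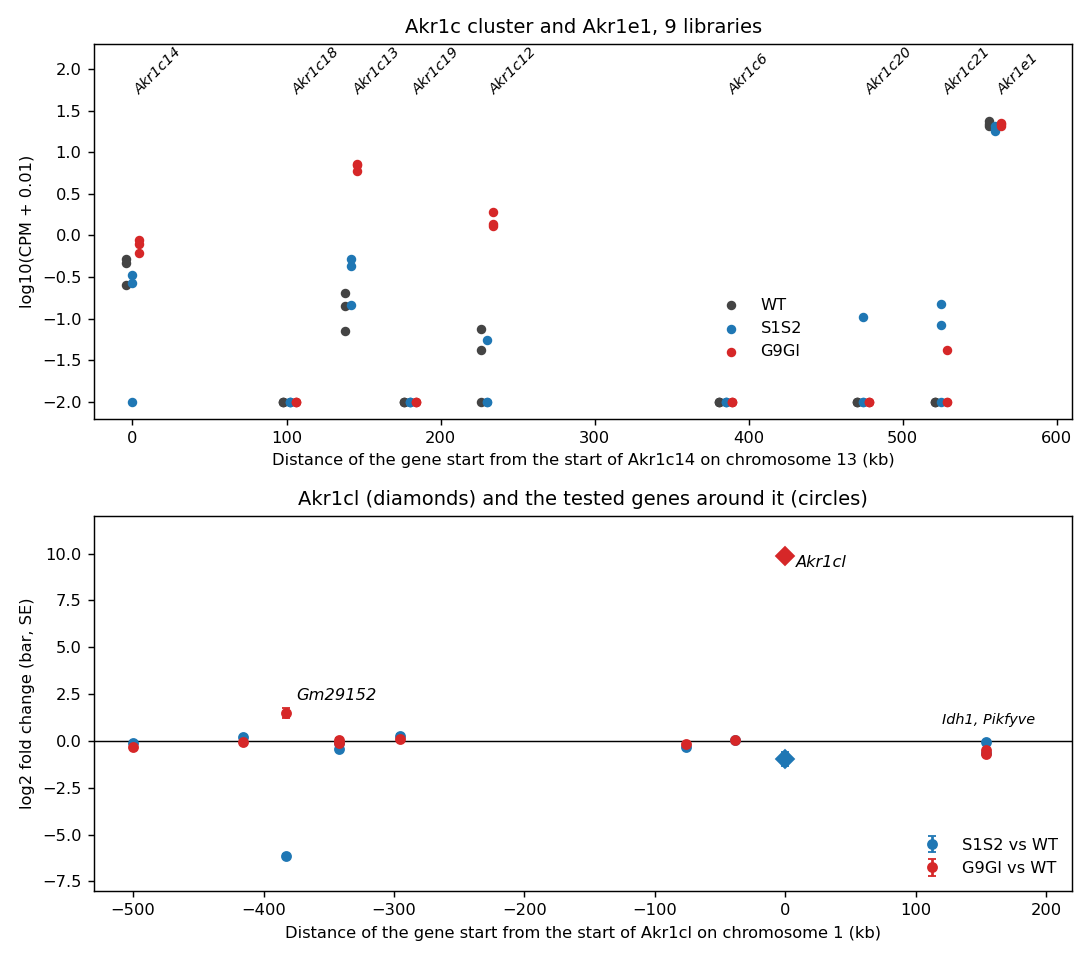
Upper panel, log10 of CPM plus 0.01 (y axis) in every library of the annotated Akr1c genes and Akr1e1, by distance of the gene start from that of Akr1c14 in kb (genotypes drawn 4 kb apart), where -2 stands for 0 counts. Akr1c13 and Akr1c12 are raised in G9Gl while Akr1c18 and Akr1c19 are at 0 in all 9 libraries. Lower panel, log2 fold change against WT with SE (y axis) of Akr1cl and the 10 tested genes around it, by distance between gene starts in kb. The value of Gm29152 in S1S2 rests on 0 counts and depends on the prior count, and bars of genes with few counts can understate the counting error.

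For each member called in at least 1 comparison, the genes with the most similar profile were sought by the root mean square difference of centred log2 CPM over the 9 libraries, a measure that uses the same values as the choice of the members. Closest to Akr1cl were Prl3d2, a placental prolactin-family gene (difference 0.45), the RNA export factor gene Nxf3 (0.52) and Tcp11x2 (0.64). In G9Gl these were at 33.1, 19.5 and 22.1 CPM, and in WT and S1S2 they had at most 3 counts in a library. None lies on chromosome 1.

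Closest to Akr1c13 were Trim5 (0.21), Vmn2r78 (0.33) and Mctp1 (0.36), of which Mctp1 is also on chromosome 13 but more than 500 kb away. Closest to Akr1c12 were Aff2 (0.30), 4932415M13Rik (0.32) and Gm11264 (0.32). Akr1c13 came 248th in likeness to Akr1c12, with a difference of 0.84. Akr1c14, with its few counts, was closest to Nanog (0.36), Tnnt3 (0.44) and A930029G22Rik (0.45).

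Nrf2, encoded by Nfe2l2 and held in check by Keap1, is the transcription factor of the oxidative stress response, for which several aldo-keto reductases are textbook targets. Nfe2l2 was at 98.6 ± 5.85 CPM in WT, 76.9 ± 6.06 in S1S2 and 93.5 ± 4.79 in G9Gl, and Keap1 at 66 ± 3.64, 71.5 ± 3.11 and 61.9 ± 2.68 CPM, neither being called. Of 15 tested genes of the list, 2 rose and 3 fell in S1S2, and 0 rose and 1 fell in G9Gl, with medians of -0.05 and 0.17. These 5 and 1 calls of 15 stand beside 9.0% of all tested genes called in S1S2 and 10.2% in G9Gl. The list was chosen with earlier results of these data known, so nothing is read from these shares. Between the mutants, 2 were higher and 2 lower in G9Gl, beside 7.97% and 5.08% of all tested genes.

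In S1S2, Gsta4, a glutathione transferase for lipid peroxidation aldehydes, was at 239 ± 4.02 CPM against 11.2 ± 1.17 in WT (a log2 difference of 4.41, SE 0.0868, with adjusted p = 2.59e-18 in edgeR). Gsta1, another glutathione transferase, had 80, 81 and 75 counts in S1S2 and 0, 1 and 0 in WT, a ratio of 314 (95% counting interval 55.8 to 12460, adjusted p = 3.73e-10 in edgeR). Slc7a11, the cystine transporter, was lower in S1S2 (1.03 ± 0.396 CPM against 31.5 ± 9.5, a log2 difference of -4.98, SE 0.408, with adjusted p = 1.86e-09), as were the quinone reductase gene Nqo1 (9.94 ± 1.36 against 26.3 ± 1.88 CPM, a log2 difference of -1.41, SE 0.126, with adjusted p = 1.23e-09) and Gstm1, which is named here although it fell outside the naming rule.

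In G9Gl, Gsta4 was the only called gene of the list and it was lower, at 4.11 ± 0.254 CPM (a log2 difference of -1.45, SE 0.0999, with adjusted p = 2.80e-10 in edgeR). Slc7a11 was at 55.3 ± 17.2 CPM (0.81, SE 0.349) and Nqo1 at 14.7 ± 0.862 CPM (-0.84, SE 0.0769), both short of the 2-fold limit.

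Among the other enzymes of aldehyde and carbonyl metabolism, 21 of 28 were tested, with 1 higher and 2 lower in S1S2 and 0 higher and 3 lower in G9Gl (medians -0.14 and -0.28). These 3 calls of 21 in each comparison lay near the shares over all tested genes, 9.0% and 10.2%, and are no result about the list. Cbr3, a carbonyl reductase, moved in opposite directions: it had 55, 39 and 45 counts in WT, 196, 194 and 168 in S1S2 and 4, 3 and 2 in G9Gl, with log2 fold changes of 2.42 (SE 0.148, adjusted p = 1.43e-09) and -3.78 (SE 0.213, adjusted p = 5.66e-08) in edgeR. Aldh1l2, the mitochondrial formyltetrahydrofolate dehydrogenase, fell in S1S2 from 374 ± 80.4 to 60.3 ± 27 CPM (adjusted p = 2.88e-08) and was at 272 ± 60.6 CPM in G9Gl. Cbr2 fell in S1S2 (-1.99, SE 0.165, adjusted p = 4.85e-07), and Aldh3b1, an aldehyde dehydrogenase, in G9Gl (-1.39, SE 0.102, adjusted p = 3.89e-08). The third gene lower in G9Gl was Khk, the fructokinase gene, named after its value was seen.

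Prostaglandins are substrates of some Akr1 enzymes, and 9 of 19 genes of their synthesis and reception were tested. In G9Gl 2 rose and 1 fell, and in S1S2 0 rose and 3 fell (medians 0.02 and -0.18). The shares over all tested genes were 6.77% up and 3.40% down for G9Gl, and 4.66% up and 4.34% down for S1S2. Ptgs1, the constitutive cyclooxygenase, had 26, 32 and 33 counts in WT, 3, 1 and 6 in S1S2 and 140, 149 and 153 in G9Gl, with log2 fold changes of -2.73 (SE 0.511, adjusted p = 2.66e-05) and 2.38 (SE 0.131, adjusted p = 2.87e-08) in edgeR. Ptgs2, the inducible cyclooxygenase, rose in G9Gl from 32.7 ± 2.76 to 76.9 ± 2.8 CPM (adjusted p = 3.00e-11) and was at 32.2 ± 2.03 CPM in S1S2. The prostaglandin E receptor gene Ptger4 fell in G9Gl (-1.75, SE 0.137, adjusted p = 0.000518). Pla2g4a, the phospholipase that releases arachidonic acid, fell in S1S2 (-1.22, SE 0.0526, adjusted p = 2.80e-12), as did Ptger1, named after its value was seen.

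Of 23 genes of steroid synthesis and conversion, 9 were tested, and edgeR and DESeq2 called 0 in either mutant against WT (5 had an unadjusted p under 0.05 in each; medians 0.09 and 0.07). With 9.0% and 10.2% of all tested genes called, under 1 call would stand in 9 genes at the same share, so the count of 0 is no result about the list. Between the mutants 2 of the 9 were called, beside 13.1% of all tested genes, and nothing is read from that count. Both were named after their values were seen: Hsd17b7 was lower in G9Gl than in S1S2 (34.3 ± 4.7 against 86 ± 11.5 CPM) and Hsd17b11 higher (13.8 ± 1.04 against 4.54 ± 0.209 CPM).

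**Figure D4:**
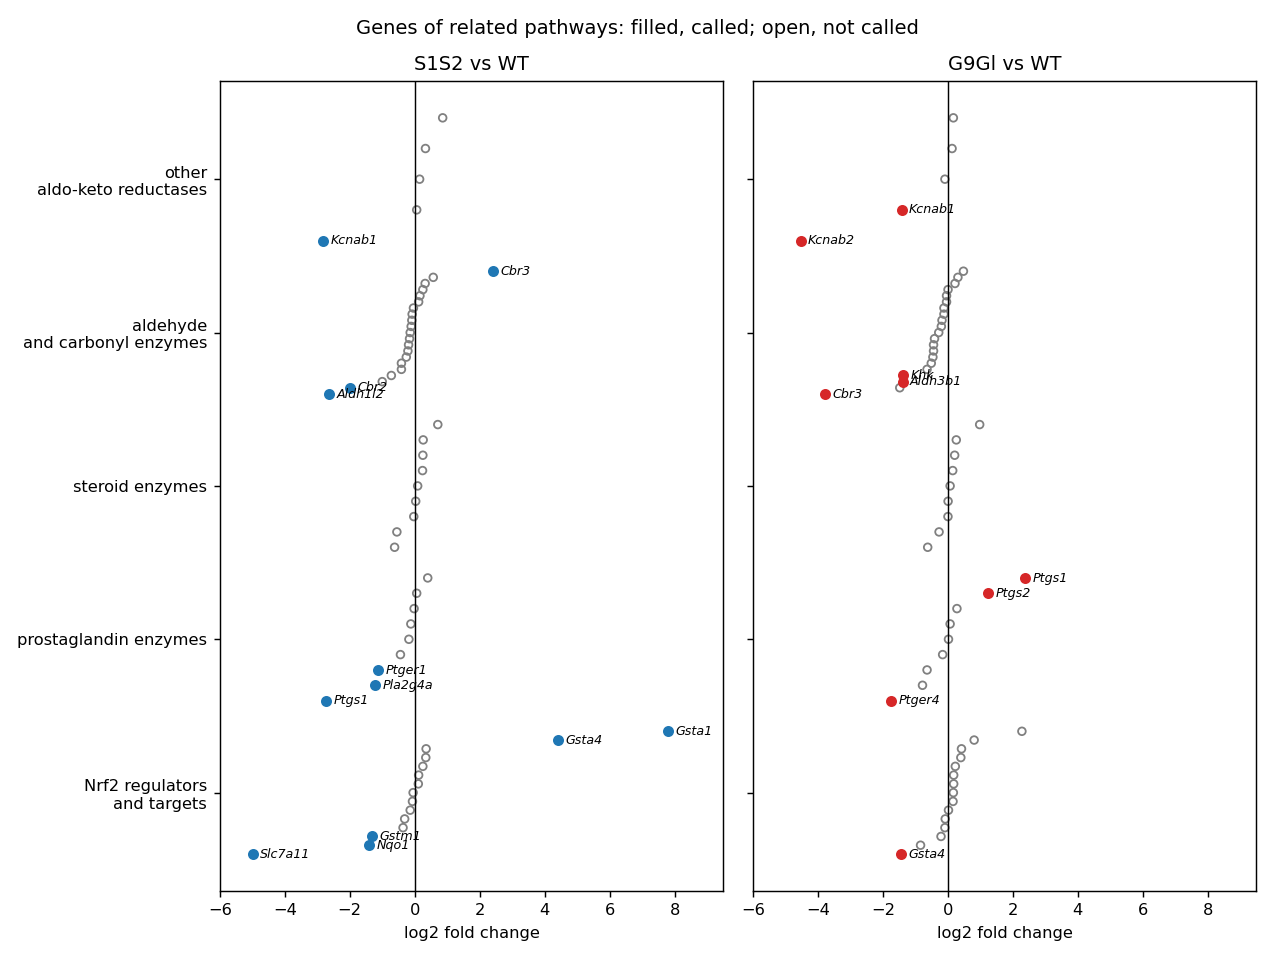
Log2 fold change against WT (x axis) of every tested gene of 5 lists of related function in S1S2 (left) and G9Gl (right); filled points passed an adjusted p of at most 0.01 in edgeR and a 2-fold change. In S1S2 the largest shifts were those of Gsta1, Gsta4 and Slc7a11, and in G9Gl those of Kcnab2 and Cbr3; no gene of the steroid list was filled.

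Markers of other cell types in which Akr1 enzymes are prominent were read in the same libraries. Of 5 hepatocyte markers, 3 (Alb, Ttr and Cyp3a11) had 0 counts in every library. The summed level of the list was at most 0.0645 CPM in WT and 0.23 CPM in S1S2 and ranged from 10.3 to 11.1 CPM in G9Gl, where Afp, the fetal liver albumin-like protein, had 303, 284 and 339 counts and was called higher than in WT. The 6 steroidogenic cell markers summed to 2.13 to 2.58 CPM in WT, 1.64 to 2.68 CPM in S1S2 and 2.3 to 2.74 CPM in G9Gl, and none was called. The 5 epithelial markers summed to 2.42 to 3.26 CPM in WT, 24.5 to 28.1 CPM in S1S2 and 9.97 to 15.7 CPM in G9Gl. Of these, the keratin gene Krt19 was called higher in both mutants than in WT, and Krt8 in S1S2. Epcam, Cdh1 and Krt18 were too low to be tested. Epcam had 9, 6 and 10 counts in WT, 2, 6 and 6 in S1S2 and 1, 2 and 3 in G9Gl. Cdh1 had at most 3 counts in a library, and Krt18 had 0, 8 and 3 in S1S2 and 0 in WT and G9Gl. The 4 endothelial and blood cell markers summed to 4.4 to 4.56, 3.53 to 4.46 and 4.88 to 6.18 CPM, most of it from Cd68, which was not called. Cdh5, the endothelial cadherin gene, had 0 counts in every WT library, 2, 3 and 1 in S1S2 and 43, 14 and 31 in G9Gl, where it was called and at least 31.6-fold higher than in WT. Pecam1, another endothelial marker, was too low to be tested, with 4, 4 and 4 counts in WT, 7, 14 and 3 in S1S2 and 4, 2 and 2 in G9Gl. Ptprc, also not tested, had 2, 2 and 4 counts in G9Gl and 0 in WT and S1S2. The part of the Krt8, Krt19, Cdh5 and Afp signals in the Akr1 values was not tested.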

How the data were processed

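Stranded total RNA libraries of 9 MEF cultures (WT, S1S2 and G9Gl, 3 each) were analysed. The deposited values are raw counts per Ensembl gene, whole numbers that the authors obtained by aligning reads to GRCm38 with STAR 2.5.2b under settings that keep multiply aligned reads and counting them with TEtranscripts. The annotation release and the strand setting of the counting are not given in the sources used here. Replicates are biological replicates of a line per the study's methods, so p-values measure the spread between these cultures.

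Gene positions came from GENCODE M21 (47310 of 47937 identifiers matched, 627 did not) and promoters from RefSeq. After filterByExpr and TMM scaling, all 9 libraries entered one quasi-likelihood fit in edgeR 4.0.16 (R 4.3.3). Calls required a fold of at least 2 and p, adjusted by Benjamini-Hochberg over 15540 genes, of at most 0.01. The common biological coefficient of variation was 5.36%. CPM are scaled by the TMM factors, and SE of log2 fold changes come from log2 CPM with a prior count of 2. For genes with few counts in a group such SE can understate the counting error. Counting intervals are exact conditional 95% intervals of summed counts.

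Named were all members, every tested further aldo-keto reductase, the 4 largest calls against WT in each other list, Nfe2l2, Keap1, the nearest and any called neighbours, the 3 most similar genes and the 4 targeted genes. The members and lists were chosen with earlier results of these data known. Alternatives were DESeq2 1.42.0, other scalings and filters, a replicate block, fits of only the compared libraries, a looser limit and omission of each library. One neighbouring gene that enters the counts is not reported here by name.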

Additional observations from a re-analysis of the deposited data

Results flagged for a closer look

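Of 63 tested genes (the set, named genes of the lists, nearest and called neighbours, the most similar genes, called markers of other cell types and the targeted genes), 11 had opposite directions in the mutants against the shared WT libraries, each past an adjusted p of 0.01, and were called in the direct test of G9Gl against S1S2 (edgeR). The same held for 509 of all 15540 tested genes (3.28%). Many of the 63 were named because they had the largest calls of their list or after their values were seen, so their share is not set against that of all genes. None of the 11 is an Akr1 gene.

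Higher in S1S2 and lower in G9Gl than in WT were Cbr3, with a log2 fold change of -6.21 for G9Gl against S1S2 (adjusted p = 1.58e-12), Gsta4, with -5.86 (adjusted p = 1.55e-19), Aldh3b1, with -1.96 (adjusted p = 2.52e-10), the targeted gene Ehmt2, with -1.60 (adjusted p = 1.43e-13), and Hsd17b7, with -1.33 (adjusted p = 4.13e-08). Lower in S1S2 and higher in G9Gl were Slc7a11, with 5.79 (adjusted p = 7.28e-11), Ptgs1, with 5.12 (adjusted p = 2.29e-10), Hsd17b11, with 1.60 (adjusted p = 5.16e-10), Pla2g4a, with 1.51 (adjusted p = 7.18e-14), and Cald1, with 1.09 (adjusted p = 4.94e-11). Gm29152 was at 0 counts in every S1S2 library and at least 20.5-fold higher in G9Gl, and its fitted log2 fold change of 7.61 (adjusted p = 2.71e-06) depends on the prior count.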

How the results depend on the processing

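Under 15 to 17 alternatives per comparison of an Akr1 gene, no direction of a called Akr1 gene reversed. Akr1cl, Akr1c12 and Akr1c13 were called in G9Gl against WT and against S1S2 under every alternative that kept them in the table, and over these the log2 fold change of G9Gl against WT ranged from 9.34 to 10.67 for Akr1cl, from 4.83 to 6.24 for Akr1c12 and from 5.33 to 6.07 for Akr1c13. A filter of at least 10 counts in every library removes these genes and Akr1c14 by construction, so that 0 members were called in G9Gl against WT and 0 against S1S2. The same filter left 0 calls among the other aldo-keto reductases in all 3 comparisons, 1 and 2 prostaglandin genes in G9Gl against WT and S1S2, and 0, 0 and 1 neighbouring genes. Without a filter, 1 member (Akr1c13) was called in S1S2 against WT, 5 prostaglandin genes in that comparison and 1 neighbouring gene in G9Gl against WT. DESeq2 called 1 other aldo-keto reductase and 0 neighbours in G9Gl against WT, and a fit of only the compared libraries called 1 of each.

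At an adjusted p of at most 0.05 with no fold limit, 48.9%, 45.9% and 53.3% of all tested genes passed for S1S2 and for G9Gl, each against WT, and between the mutants. That limit gave 4 members in the first and 5 in the second comparison, 3 other aldo-keto reductases in the first and 2 in the third, 14, 14 and 19 aldehyde and carbonyl genes, 5, 5 and 5 steroid genes, 5, 7 and 7 prostaglandin genes, 10, 10 and 11 Nrf2 genes, and 25, 16 and 26 neighbours.

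Leaving out 1 library at a time gave 0 to 1 members in S1S2 against WT (Akr1c13, without S1S2 replicate 1). It gave 3 members throughout in G9Gl against WT and 3 to 4 against S1S2. The other aldo-keto reductases ranged from 1 to 2 in S1S2 against WT (2 without WT replicate 2) and from 1 to 2 in G9Gl against WT, steroid genes from 0 to 1 in G9Gl against WT (1 without G9Gl replicate 2 or WT replicate 3), Nrf2 genes from 1 to 2 in G9Gl against WT (2 without WT replicate 3), and neighbours from 1 to 3 in S1S2 against WT (1 without S1S2 replicate 2 or WT replicate 1) and from 0 to 2 in G9Gl against WT (0 without WT replicate 1 or 3). The cause of these shifts was not tested.

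Replicate numbers did not pair the libraries: same-numbered deviations from the genotype means had mean correlations of 0.0479, 0.0426 and -0.0543 in the 3 comparisons, and 3, 3 and 0 of 6 libraries correlated best with their own number. With a replicate block, the calls over all genes went from 1398 to 1383 in S1S2 against WT, from 1580 to 1568 in G9Gl against WT and from 2028 to 2022 in G9Gl against S1S2, and every list kept its count (0, 3 and 4 members). At 21319778 to 32157623 counts a library, genes under 0.0923 to 0.141 CPM could not be told from 0, which limits all statements on Akr1c18 and on Akr1cl and Akr1c12 in WT and S1S2.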
